A study of Capra hircus with 3 samples.

Results

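Transcripts of respiratory complex I were followed through 3 RNA sequencing libraries of the goat longissimus dorsi, the long muscle beside the spine. Members were the entries whose product text begins with the name NADH dehydrogenase (ubiquinone), leaving out entries described as like another gene. This gave 44 of the 24689 entries of the deposited table: 7 core subunits, 30 accessory subunits and 7 assembly factors. All 44 had a mean of at least 1 FPKM (fragments corrected for gene length and sequencing depth), the limit used for the comparisons, which 12121 entries passed. The animals were goats (Capra hircus) at 2 months (kid), 9 months (youth) and 24 months (adult), with 1 library at each age. The sources used here give no breed, sex, diet or treatment, and do not say whether a library holds 1 animal or a pool. With no replicate, no test between ages was possible, no p-value was computed, and each value below describes a library and not an age.

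Complex I is the entry point of the mitochondrial respiratory chain. It takes electrons from NADH onto a flavin, passes them along a chain of iron-sulfur clusters to ubiquinone, and uses the energy to pump protons across the inner membrane. The core subunits, conserved from bacteria, hold the flavin, the clusters and the proton channels. Accessory subunits surround and stabilise the core, and assembly factors help to build the complex but are absent from the finished enzyme. In muscle the complex is most abundant in oxidative, mitochondria-rich fibres.

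Of the core, 7 subunits are encoded in the nucleus and were all measured, while the 7 encoded in mitochondrial DNA (ND1 to ND6 and ND4L) matched no entry and were not analysed here. Among the nuclear accessory genes, the entry for NDUFS6 is described as like another protein and so falls outside the rule. Its levels were 22.7, 25.8 and 34.2 FPKM in kid, youth and adult, the order in which values are listed throughout. NDUFA4L2, a relative of NDUFA4 known to be induced by low oxygen, falls outside for the same wording, with 10.01, 8.10 and 7.08 FPKM. The assembly factor NDUFAF8 matched no entry and was not analysed here. NDUFA4 is kept under its old name, although the protein is now placed in cytochrome c oxidase, the complex IV of the chain.

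Whole reads were recovered from the smallest steps of the FPKM values. The totals behind the values were 15829474 reads in kid, 14920689 in youth and 18399385 in adult. The 44 members together had 87438, 71462 and 126914 recovered reads, which is 0.552%, 0.479% and 0.690% of those totals. Each ratio below carries an exact 95% interval of the reads of its 2 libraries, and "beyond counting error" means that this interval leaves out 1. These intervals cover counting error only and say nothing of variation between animals. In the muscle sampled, a different number of oxidative fibres and a different amount of RNA per fibre cannot be told apart.

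The label of the tissue was checked against defining genes, since the extraction text names mammary tissue. Muscle creatine kinase (CKM) stood at 14183, 19069 and 18998 FPKM in kid, youth and adult. Of 7 markers of mammary epithelium, the caseins CSN1S1, CSN2 and CSN3, the milk protein LALBA and the keratin KRT14 were listed at 0 in all 3 libraries, and the 7 together summed to 3.17, 1.58 and 1.21 FPKM.

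The nuclear subunits of complex I were among the abundant transcripts of this muscle. By mean FPKM, 28 of the 37 subunits ranked within the first 500 of the 18866 entries above 0, and 36 within the first 1000. The median subunit stood at 168, 138 and 201 FPKM, while the median of all tested entries was 7.83 FPKM by mean. Assembly factors were far lower, with medians of 13.5, 10.8 and 16.7 FPKM in the same order. The highest assembly factor in every library, NDUFAF3, lay below the lowest of the 37 subunits within the rule, NDUFB2, which stood at 40.1, 36.7 and 52.3 FPKM. Outside the rule the classes overlap, since the subunit NDUFS6 lay below NDUFAF3 and the assembly protein ECSIT, at 76.8, 79.6 and 116 FPKM, above NDUFB2. Levels compared between genes here are per length.

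**Figure D1:**
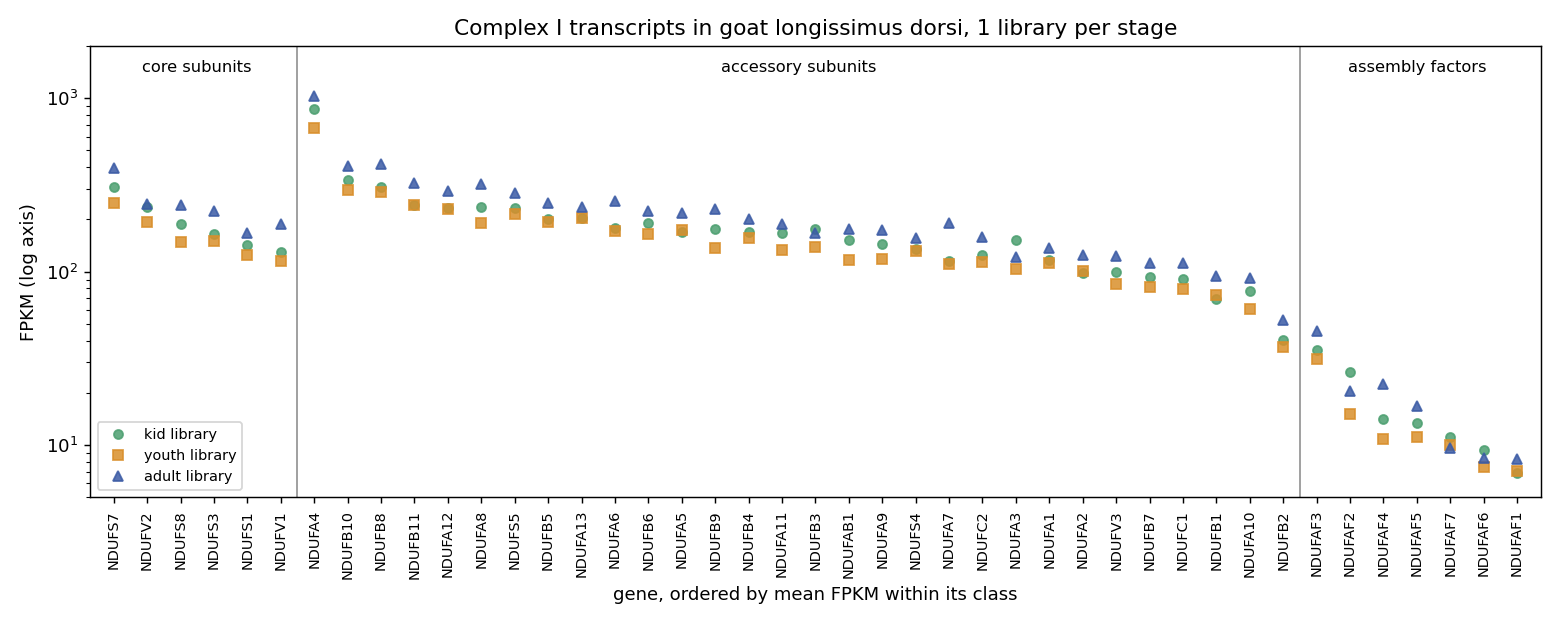
FPKM (log axis) of 43 complex I genes in the kid, youth and adult libraries, with 1 point per library and genes ordered by mean within the core, accessory and assembly classes. Adult is the highest point for 38 genes, and youth lies lowest for most genes. The 7 assembly factors lie between 6.91 and 45.3 FPKM, in each library below the subunits drawn.

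NDUFA4 was the most abundant member in all 3 libraries. It stood at 866, 671 and 1023 FPKM and made up 12.2%, 10.8% and 11.7% of the FPKM summed over the 37 subunits. Next came NDUFB10, a membrane-arm subunit, in kid and youth (338 and 296 FPKM). The least abundant of these 37 subunits, NDUFB2, had more reads than many others: 1616, 1396 and 2451 reads were divided by a length of 2547 bases, against a median of 1906 for all resolved entries and 571 for the accessory subunit NDUFA12. The ranking of the subunits hardly differed between libraries, with Spearman's rho across the 37 subunits of 0.972 for kid with youth, 0.957 for youth with adult and 0.953 for kid with adult. These describe genes within shared libraries, which are not independent replicates.

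The most common order, adult above kid above youth, was found in 34 of 44 members and in 19.9% of all tested entries. It was followed by all 7 core subunits, 24 of 30 accessory subunits and 3 of 7 assembly factors. A further 5 members had adult highest and kid lowest: NDUFA2, NDUFA5, NDUFB1, NDUFB11 and NDUFAF1. Kid was highest and youth lowest for NDUFA3, NDUFB3, NDUFAF2 and NDUFAF6, and NDUFAF7 alone stood highest in kid and lowest in adult. For 17 members the kid and youth values were not apart beyond counting error, so their place in these orders is not resolved. The same holds for kid and adult in NDUFB3, NDUFAF6 and NDUFAF7, and for adult and youth in NDUFAF6 and NDUFAF7.

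Adult was compared with youth to see how complex I transcripts differ between the libraries at 24 and 9 months. Members were higher in adult: 42 of 44 lay above youth beyond counting error, none lay below, and the share of all tested entries higher beyond counting error was 22.3%. The share lower was 27.0%. The intervals of NDUFA3 and NDUFAF1 began at 1.02 and 1.01, so their calls depend on the deposited scaling. The FPKM of all entries summed to 520986 in youth and 544336 in adult. The median difference of log2(FPKM + 1) over the members was 0.46, a 1.38-fold median, where the median of all tested entries was -0.02. On that log2 scale, which understates low genes, 12 members were at least 1.5-fold higher, against 5.40% of all tested entries, and none was at least 1.5-fold lower (5.45% of entries). The 12 were 4 core subunits, 7 accessory subunits and 1 assembly factor, and the number was 6 after quantile normalization.

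Core subunits of the module that reduces ubiquinone were higher in adult. NDUFS7, which carries the last iron-sulfur cluster before ubiquinone, was at 307, 249 and 395 FPKM, so that adult exceeded youth 1.59-fold (interval 1.52 to 1.66). NDUFS8, which carries the clusters just upstream of it, was at 189, 148 and 243 FPKM (1.64-fold, 1.56 to 1.73). In both the adult library was the highest and youth the lowest. NDUFS3, a scaffold of the same module with no cluster of its own, was at 164, 150 and 224 FPKM (1.495-fold, 1.41 to 1.59).

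The 3 core subunits at the NADH end differed in their ratios. NDUFV1, which binds NADH and the flavin, was at 130, 116 and 187 FPKM, 1.62-fold higher in adult than in youth (1.54 to 1.70). Its partner NDUFV2, which holds a cluster beside the flavin, was at 234, 192 and 246 FPKM, a ratio of 1.28 (1.22 to 1.34). NDUFS1, the largest core subunit, was at 143, 124 and 168 FPKM, a ratio of 1.35 (1.31 to 1.39). The intervals of NDUFV2 and NDUFS1 lie wholly below those of NDUFV1, NDUFS7 and NDUFS8, so those 2 transcripts differed from these 3 in this ratio by more than counting error.

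All 30 accessory subunits were higher in adult than in youth beyond counting error as deposited, over ratios from 1.15 to 1.72. For NDUFA3 this depends on the scaling. NDUFA7, a subunit of the NADH-oxidising module, had the largest: 116, 111 and 190 FPKM, or 1.72-fold (1.58 to 1.87). NDUFA8, on the intermembrane-space side, was at 236, 191 and 320 FPKM (1.67-fold, 1.59 to 1.76). NDUFB9, a membrane-arm subunit that holds an acyl carrier protein, followed at 176, 137 and 229 FPKM (1.67-fold, 1.57 to 1.77). In these 3 genes the adult library stood clear of both others. That acyl carrier protein itself, NDUFAB1, was 1.51-fold higher (1.41 to 1.62), and NDUFA4 1.53-fold (1.48 to 1.58).

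At the lower end were NDUFA13, also known as GRIM19, and NDUFS4, a subunit that joins the NADH end late in assembly. NDUFA13 was at 205, 204 and 235 FPKM, 1.15-fold higher in adult than in youth (1.08 to 1.22). NDUFS4 was at 136, 132 and 155 FPKM (1.17-fold, 1.09 to 1.26). In both genes the kid and youth libraries were nearly level. NDUFA3, a small membrane-arm subunit, was 1.18-fold higher in adult than in youth (1.02 to 1.36) on 310 youth reads, and its kid library, at 152 FPKM, lay above both (103 and 122).

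Assembly factors spread more widely than subunits, on fewer reads. NDUFAF4, which acts with NDUFAF3 on the early ubiquinone module, had the largest ratio of all 44 members: 14.2, 10.8 and 22.5 FPKM, or 2.09-fold over youth (1.73 to 2.55; 382 against 148 reads). NDUFAF3 itself was at 35.5, 31.2 and 45.3 FPKM (1.45-fold, 1.27 to 1.66). NDUFAF5, which modifies NDUFS7, was at 13.5, 11.1 and 16.7 FPKM (1.51-fold, 1.26 to 1.82). These 3 factors had the order of the core subunits. For NDUFAF3 and NDUFAF5 the place of kid above youth is not resolved, with intervals of youth to kid of 0.759 to 1.02 and 0.673 to 1.001.

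NDUFAF7, a methyltransferase that acts on the complex, and NDUFAF6, needed early in assembly, were the 2 members not beyond counting error. NDUFAF7 was at 11.1, 10.01 and 9.62 FPKM, a ratio of 0.961 to youth (0.806 to 1.15). NDUFAF6 was at 9.31, 7.51 and 8.45 FPKM, a ratio of 1.13 (0.958 to 1.32). NDUFAF2, a relative of the subunit NDUFA12 that stands in for it during assembly, was at 26.3, 15.1 and 20.6 FPKM (1.36-fold, 1.10 to 1.68). NDUFAF1, part of the membrane-arm assembly complex, was at 6.91, 7.05 and 8.34 FPKM (1.18-fold, 1.01 to 1.39).

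**Figure D2:**
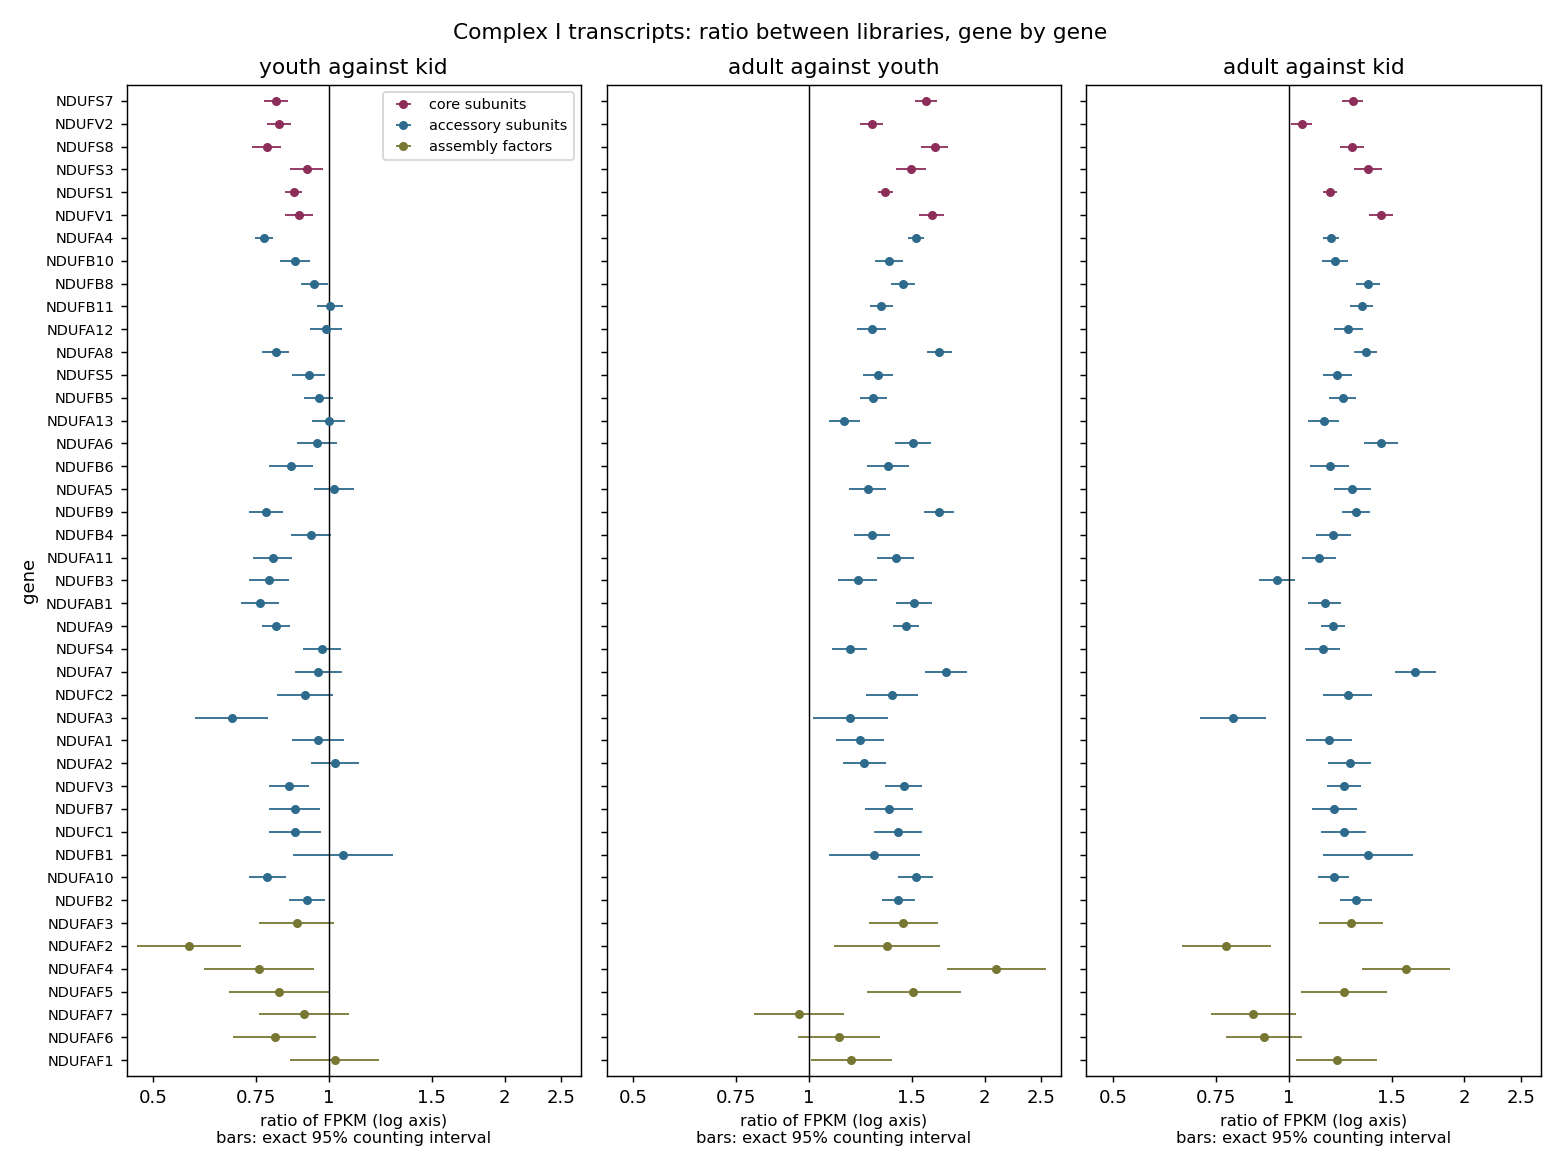
Ratio of FPKM (log axis) between 2 libraries for each of 43 genes, coloured by class, in the youth against kid, adult against youth and adult against kid comparisons. Bars are exact 95% intervals of the reads and the vertical line marks 1. In the middle panel 41 genes lie to the right of the line with their whole bar, and NDUFAF4 lies furthest at 2.09.

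Youth was compared with kid to see how the same transcripts differ between 9 and 2 months. Members were lower in youth or not apart: 27 of 44 lay below kid beyond counting error, none lay above, and the other 17 intervals held 1. Of all tested entries, 26.9% were lower and 11.6% higher beyond counting error. The median difference over members was -0.19 on the log2(FPKM + 1) scale, and -0.08 over all tested entries. With size factors by the median of ratios, which bring the median entry to about 0, members' calls were 17 lower and 2 higher (NDUFA5 and NDUFB11), where 16.2% and 18.7% of all tested entries were. At least 1.5-fold lower was 1 member, NDUFAF2, where 3.77% of entries were.

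All 7 core subunits were lower in youth than in kid beyond counting error, as were 17 of 30 accessory subunits and 3 of 7 assembly factors. The core ratios ran from 0.781 for NDUFS8 (0.737 to 0.827) to 0.915 for NDUFS3 (0.858 to 0.975). With median-of-ratios size factors the intervals of the core subunits NDUFS3 and NDUFV1 held 1. So did those of the accessory subunits NDUFB2, NDUFB6, NDUFB7, NDUFB8, NDUFC1 and NDUFS5. Among accessory subunits NDUFA3 was the lowest against kid, 1.47-fold (1.27 to 1.70), followed by NDUFAB1 (1.31-fold, 1.22 to 1.41). At the other end NDUFB1, a small membrane-arm subunit, was at 69.2 FPKM in kid and 73.1 in youth, a ratio of 1.06 (0.866 to 1.29) on 206 and 205 reads. NDUFA5, of the ubiquinone module, was at 169 and 173 FPKM (ratio 1.02, 0.940 to 1.10).

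NDUFAF2 was 1.74-fold lower in youth than in kid (1.42 to 2.14; 148 against 273 reads), the widest gap of any member in this pair. NDUFAF4 was 1.32-fold lower (1.06 to 1.64) and NDUFAF6 1.24-fold lower (1.05 to 1.46). With median-of-ratios size factors the intervals of NDUFAF4 and NDUFAF6 held 1 (ratios to kid of 0.651 to 1.004 and 0.730 to 1.013). NDUFAF1 had a ratio of 1.02 (0.858 to 1.22). Both comparisons above use the youth library, so they are not independent of each other.

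Adult was compared with kid to set the oldest beside the youngest library. Here 39 of 44 members were higher in adult beyond counting error (16.7% of all tested entries) and 2 were lower, NDUFA3 and NDUFAF2 (34.6% of entries). The median difference over members was 0.30, against -0.10 over all tested entries. Only NDUFA7 and NDUFAF4 were at least 1.5-fold higher, where 2.60% of entries were, and none was at least 1.5-fold lower (6.64%). NDUFA7 exceeded kid 1.65-fold (1.52 to 1.78) and NDUFAF4 1.59-fold (1.34 to 1.89).

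NDUFV1 exceeded kid 1.44-fold (1.37 to 1.51), as did NDUFA6 (1.44-fold, 1.34 to 1.54). NDUFA6, like NDUFB9, binds the acyl carrier protein. The core subunit nearest to kid was NDUFV2, at 246 against 234 FPKM, a ratio of 1.05 (1.01 to 1.10). NDUFA3 was 1.25-fold lower in adult than in kid (1.09 to 1.42), and NDUFAF2 1.28-fold lower (1.07 to 1.53), the latter interval holding 1 after median-of-ratios scaling. NDUFB3 (ratio 0.954, 0.889 to 1.03), NDUFAF6 (0.908, 0.781 to 1.05) and NDUFAF7 (0.870, 0.734 to 1.03) were not beyond counting error.

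An entry described as a copy of NDUFA3, outside the rule, was at 10.5, 6.94 and 8.36 FPKM, from 56, 35 and 52 reads. Its order is that of NDUFA3 but is not resolved, since all 3 of its intervals held 1. The ratios were 0.663 for youth to kid (0.422 to 1.03), 1.20 for adult to youth (0.770 to 1.91) and 0.799 for adult to kid (0.537 to 1.19). No source used here says how reads matching both were counted, so the values of NDUFA3 are uncertain. For NDUFA4, 4 entries described as copies were listed at 0 in all 3 libraries.

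The classes were set side by side without a test, since genes of a class are not replicates. In adult against youth the median difference was 0.66 for the 7 core subunits, 0.45 for the 30 accessory subunits and 0.42 for the 7 assembly factors. The core median was 0.56 when the 10 entries worded as iron-sulfur protein or flavoprotein, NDUFS4, NDUFS5 and NDUFV3 among them, were taken as core. At least 1.5-fold higher were 4 of 7 core subunits, 7 of 30 accessory subunits and 1 of 7 assembly factors. These medians and counts use log2(FPKM + 1), which understates the assembly factors most, as the class with the lowest FPKM. NDUFAF5, with a FPKM ratio of 1.51, is therefore not counted. Over the 37 subunits the adult against youth difference rose with recovered length (Spearman's rho 0.44). Recovered lengths ran from 789 to 3549 bases in the core and from 188 to 2547 in the accessory class. The part of length in the class medians was not tested. In youth against kid the medians were -0.23, -0.13 and -0.26, and -0.13, -0.04 and -0.18 with median-of-ratios size factors. In adult against kid they were 0.36, 0.29 and 0.24. The standard deviation of the adult against youth difference over genes was 0.15 in the core, 0.15 in the accessory class and 0.34 among the assembly factors, and 0.40 over all tested entries.

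Grouped by place in the complex, the 6 genes of the ubiquinone module had a median difference of 0.62 in adult against youth. The 9 measured genes of the NADH module had 0.43, with a range from 0.23 (NDUFS4) to 0.78 (NDUFA7), and the 20 of the membrane arm 0.45, from 0.20 to 0.74. Within the ubiquinone module NDUFA5 stood at 1.26-fold (1.17 to 1.36), below NDUFA9 at 1.47-fold (1.39 to 1.54). In youth against kid the 3 medians were -0.26, -0.07 and -0.16, and in adult against kid 0.36, 0.34 and 0.27. The core subunits made up 21.0%, 20.3% and 21.9% of the FPKM summed over all subunits.

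Other genes that build or serve complex I were taken from companion lists. The counts of these lists in adult against youth are to be set beside all tested entries, of which 22.3% were higher and 27.0% lower beyond counting error, with a median of -0.02. Of 11 assembly proteins outside the NDUFAF names, 9 were higher in adult than in youth beyond counting error and none lower (median 0.37). The most abundant was ECSIT, of the membrane-arm assembly complex (1.45-fold, 1.37 to 1.54). DMAC1, a membrane-arm assembly factor, was the only one at least 1.5-fold higher, at 24.4, 20.9 and 31.9 FPKM (1.53-fold, 1.28 to 1.82). NUBPL, which delivers iron-sulfur clusters to complex I, had a ratio of 0.931 (0.707 to 1.23).

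Of 13 genes that make mitochondrial iron-sulfur clusters, 11 were higher in adult than in youth beyond counting error and none lower (median 0.39). The scaffold ISCU, the most abundant, was at 160, 142 and 217 FPKM (1.53-fold, 1.45 to 1.62), and the carrier GLRX5 at 31.0, 24.9 and 44.1 FPKM (1.77-fold, 1.54 to 2.03). Genes of coenzyme Q synthesis and handling, which provide the electron acceptor, were higher in 9 of 13 cases and lower in none (median 0.45). COQ8A, a kinase-like protein of that pathway, was the most abundant of them at 241, 163 and 323 FPKM (1.98-fold, 1.92 to 2.03).

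Genes of other routes that bring electrons to the same ubiquinone pool were mixed. Of 11 genes tested, 6 were higher in adult than in youth beyond counting error and 1 lower (median 0.17). The 6 were SDHA, SDHB, SDHC and SDHD of complex II, with ETFB and ETFDH. SDHA, the flavoprotein of complex II, was at 283, 259 and 400 FPKM (1.54-fold, 1.504 to 1.585). GPD2, the mitochondrial glycerol-3-phosphate dehydrogenase that brings in electrons from glycolytic NADH, stood the other way at 41.5, 41.8 and 13.9 FPKM, a ratio of adult to youth of 0.333 (0.310 to 0.359). Its kid and youth libraries were level and the adult library lay far below both, while 42 of 44 complex I members were higher in adult than in youth.

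Mitochondrial proteins outside the respiratory chain were higher in adult than in youth in 11 of 14 cases and lower in 2 beyond counting error, with a median of 0.28. The outer-membrane channel VDAC3, the most abundant, was at 781, 732 and 721 FPKM (ratio 0.985, 0.961 to 1.01), and the import receptor TOMM20 at 119, 112 and 171 FPKM (1.53-fold, 1.45 to 1.60). Citrate synthase (CS) was at 153, 136 and 177 FPKM (1.30-fold, 1.26 to 1.35).

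Of 13 regulators of mitochondrial genes, 5 were higher in adult than in youth beyond counting error and none lower (median 0.18), where 22.3% and 27.0% of all tested entries were. The nuclear receptor ESRRA, a partner of the coactivator PPARGC1A at respiratory chain genes, was at 45.7, 36.3 and 80.4 FPKM (2.21-fold over youth, 2.09 to 2.34), with the order of the core subunits. ESRRG had that order too, at 12.2, 3.40 and 21.4 FPKM. PPARGC1A did not, at 26.1, 43.3 and 130 FPKM. The remaining regulators higher in adult than in youth were ESRRB (1.73-fold, 1.30 to 2.32) and PPARGC1B (1.70-fold, 1.46 to 1.98). Among the 8 not apart beyond counting error, NRF1, an activator of respiratory chain genes, was at 5.51, 3.75 and 4.62 FPKM (ratio 1.23, 0.982 to 1.55) and TFAM, which acts on mitochondrial DNA, at 11.5, 11.6 and 11.6 FPKM (ratio 0.997, 0.841 to 1.18).

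In youth against kid the list medians ran from -0.23 (coenzyme Q genes) to -0.06 (mitochondrial proteins outside the chain), against -0.08 over all tested entries. Lower in youth beyond counting error, where 26.9% of all tested entries were lower and 11.6% higher, were 3 of 11 assembly proteins, 6 of 13 iron-sulfur cluster genes and 7 of 13 coenzyme Q genes, with none higher. The count for the assembly proteins is near the share over all entries. Of the genes of other routes to ubiquinone 7 were lower and 1 higher. The mitochondrial proteins outside the chain had 6 lower and 1 higher, and the regulators 5 lower and 2 higher. PPARGC1A was among those higher in youth than in kid (1.66-fold, 1.58 to 1.75). The list counts here use the deposited scaling only. With median-of-ratios size factors 16.2% of all tested entries were lower and 18.7% higher, and the list counts were not repeated.

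**Figure D3:**
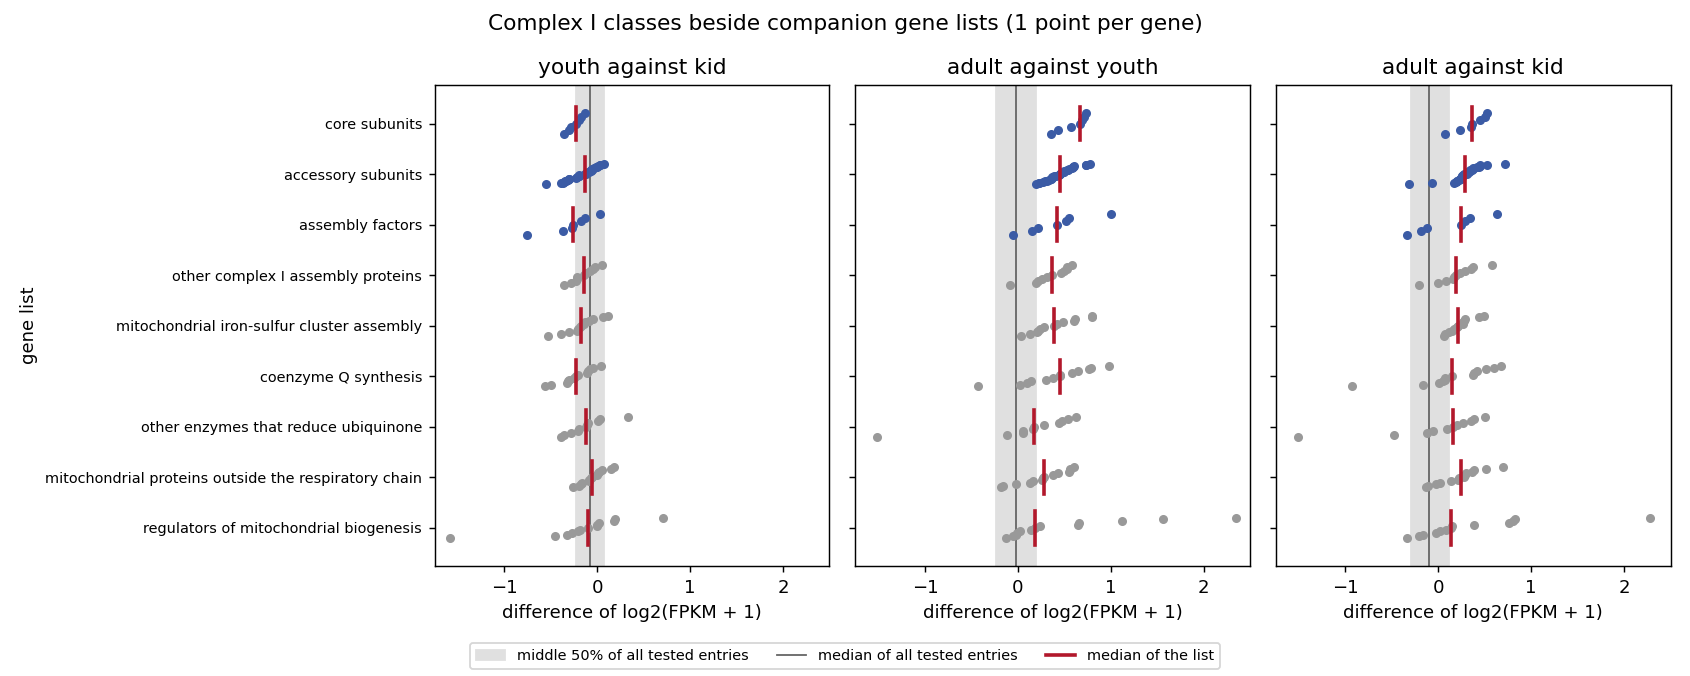
Difference of log2(FPKM + 1) in each comparison, with 1 point per gene, for the 3 complex I classes (blue) and 6 companion lists (grey). Red bars are list medians, and the grey line and band are the median and quartiles of the 12121 tested entries. In adult against youth the core median (0.66) is the furthest right, and GPD2 is the grey point at the far left.

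Markers of other cells differed between the libraries too. The 5 measured macrophage markers (CD68, C1QA, C1QB, CSF1R and CD14) summed to 48.0, 54.3 and 25.8 FPKM, and all 5 were lower in adult than in youth beyond counting error. The 6 fibroblast markers summed to 828, 1012 and 698 FPKM, with 6 of 6 lower in adult than in youth. The 6 adipocyte markers summed to 350, 195 and 202 FPKM, and the 5 tested were all lower in youth than in kid. In adult against youth 3 of these 5 were higher (PLIN1, ADIPOQ and CIDEC) and 1 lower (LPL) beyond counting error. The 5 measured endothelial markers summed to 158, 140 and 135 FPKM, with opposite directions within the sum. In adult against youth 2 were higher (KDR and VWF) and 2 lower (PECAM1 and CDH5) beyond counting error. Of 9 slow-fibre markers, 8 were measured and summed to 18831, 17517 and 18793 FPKM, an order of kid, adult, youth. In adult against youth 5 of these 8 were higher and 2 lower beyond counting error, with a median difference of 0.14. MYL3, a slow light chain and the marker furthest apart, was at 853, 406 and 948 FPKM with the order of the core subunits. The 2 lower were ATP2A2 and MYL2. MYL2, the most abundant of the 8 in every library, was at 6456, 7509 and 6873 FPKM, highest in youth. Fast myosins differed as well: MYH2, of the oxidative fast fibres, was at 3054, 2248 and 3887 FPKM, also in the core order, and MYH1, of the more glycolytic fast fibres, at 4693, 5942 and 2636 FPKM, the reverse order. The 9 markers of muscle fibres in general, which include both, summed to 57290, 66621 and 74286 FPKM. The part of these cells and fibres in the complex I values was not tested.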

How the data were processed

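RNA libraries of goat longissimus dorsi at 3 ages were compared, 1 library each. The authors deposited FPKM values, in 1 column per library. FastQC, TopHat2 and DESeq are named without version or role, per the submitters' processing notes. For genome build, annotation and counting method, nothing is stated in the sources used here. Since FPKM divides the reads of each gene by a library total, very abundant genes can shift all others.

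Symbols came from a RefSeq table of the goat assembly ARS1.2 by gene number, and 11 list genes were matched by product text. Whole reads were recovered for 17211 entries, all of those above 0 in at least 2 libraries, with a tolerance of 5e-05 reads beside the rounding of the file. Where reads and length share a factor, fewer reads are returned and the interval is wider. NDUFA3 and NDUFB1, with short recovered lengths of 201 and 188 bases, may be such cases, so their read numbers may be too low. The steps were tested on simulated data. Differences used log2(FPKM + 1), with a pseudocount of 1, among entries with a mean of at least 1 FPKM. Intervals are exact (Clopper-Pearson, 95%) on reads, in scipy 1.17.1 under Python 3.11.15. For a 1 kb gene, 3 reads are worth 0.190, 0.201 and 0.163 FPKM in the libraries by age.

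The members and lists were chosen with earlier results of these data known. Full values were given for core subunits, for the most and least abundant members and those furthest apart in each class, for members out of the common order, and for the leading genes of each companion list. Alternatives were other pseudocounts, scalings, filters, interval levels and class definitions. A planned search of promoter sequences was not run, and sequences are not used here. The values of 1 member enter the counts and medians but are not reported here.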

Additional observations from a re-analysis of the deposited data

How the results depend on the processing

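No paired analysis was possible because each age has 1 library. The core median of youth against kid was -0.16 after quantile normalization and -0.13 with median-of-ratios size factors, which also took the accessory median from -0.13 to -0.04 and the assembly median from -0.26 to -0.18. In adult against youth it was 0.57 after quantile normalization and 0.56 with all iron-sulfur and flavoprotein entries as core, and members at least 1.5-fold apart were 6 after quantile normalization. In adult against kid, median-of-ratios factors gave 0.48 for the core, 0.40 for accessory subunits and 5 members at least 1.5-fold apart, and a pseudocount of 5 gave 1 such member. NDUFB8 in youth against kid turned to 0.00746 after quantile normalization and 0.00890 with median-of-ratios factors. The cause was not tested. Under the 3 other scalings the median over the 44 members ran from -0.17 to -0.10 in youth against kid, 0.40 to 0.48 in adult against youth and 0.25 to 0.41 in adult against kid. The other 120 of 129 alternative values stayed within 1.5 times (counts) or within a limit set for medians, the accessory and assembly values above among them. That limit was the half-width of the log2 counting interval of the gene or genes in the middle of the list. It is not the counting error of a median. In youth against kid it was 0.13 for the accessory class and 0.29 for the assembly factors. It was thus as wide as those medians and cannot show that they were stable. Of all tested entries in youth against kid, 182 were at least 1.5-fold higher and 457 lower, but 305 and 290 after quantile normalization and 268 and 309 with median-of-ratios factors. In adult against youth the split was 655 and 661, and 501 and 823 with equal FPKM sums. In adult against kid it was 315 and 805, 472 and 516 after quantile normalization, 525 and 549 with median-of-ratios factors and 263 and 964 with equal FPKM sums. With a pseudocount of 0.1 the 3 comparisons gave 320 and 870, 945 and 1045, and 478 and 1351 entries, and with a pseudocount of 5 they gave 63 and 100, 267 and 236, and 145 and 247. Depth limits the assembly factors most, with 148 to 607 reads per library.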
